A study of Mus musculus with 7 samples.

Results

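Freshly sorted neural crest-derived cells of subcutaneous fat were compared with those of the small bowel, before any culture. The comparison used 2 of the 7 mouse RNA sequencing libraries of the series, 1 per tissue, chosen by their labels. Of 27179 gene identifiers, 15585 reached 1 CPM (reads of a gene scaled to the library's total) in at least 1 of the 2 libraries and are called measured. The adipose cells came from posterior subcutaneous fat pads. The bowel cells came from the muscle layer of the small bowel with its myenteric plexus. All animals were Wnt1-Cre;tdTomato (Wnt1-tdT) mice aged 1 month, and each library was made from about 50000 cells pooled from 3 mice, 2 female and 1 male. In these mice Cre recombinase driven by the Wnt1 promoter switches on the red protein tdTomato in the crest lineage, so both groups carry the same driver and reporter, and both tissues were digested with collagenase and dispase and sorted for red fluorescence. The other 5 libraries hold cultured spheroids and neurospheres (floating colonies grown from these cells), and 1 of these holds tdTomato-negative cells.

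The neural crest is an embryonic cell population that leaves the dorsal neural tube and forms most of the peripheral nervous system. In the gut wall its descendants are the neurons and glia of the enteric nervous system, which run motility and secretion. In subcutaneous fat they are mainly the Schwann cells of nerves whose neuronal cell bodies lie elsewhere, in ganglia that a fat pad does not contain, so axons reach the fat but neuronal nuclei do not.

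The adipose library held 64024478 reads assigned to genes and the bowel library 57685653. Since each tissue has 1 library, differences could not be checked against replicates. Counting intervals cover only the counting of reads, and no spread between animals or preparations. Reads amplified by PCR with no molecular identifiers do not each stand for a molecule. The intervals can therefore be too narrow even for the sampling of molecules. A gene was called higher or lower (the size rule) when it differed at least 4-fold and the whole 95% counting interval lay past 2-fold. In adipose cells 1105 measured genes were higher (7.09%) and 1774 were lower (11.4%), which makes 18.5% in either direction. Counts within the gene lists below are to be read beside these shares. The median log2 ratio of all measured genes (adipose over bowel throughout) was 0.09, the quartiles were -0.60 and 0.67, and 64.1% of the genes lay within 2-fold. The lower side reached further, with 299 genes at least 100-fold lower against 61 at least 100-fold higher. No reads were found in the bowel library for 119 of the higher genes, and none in the adipose library for 253 of the lower genes. In bulk RNA, fewer cells of a type and less RNA per cell cannot be told apart.

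**Figure D1:**
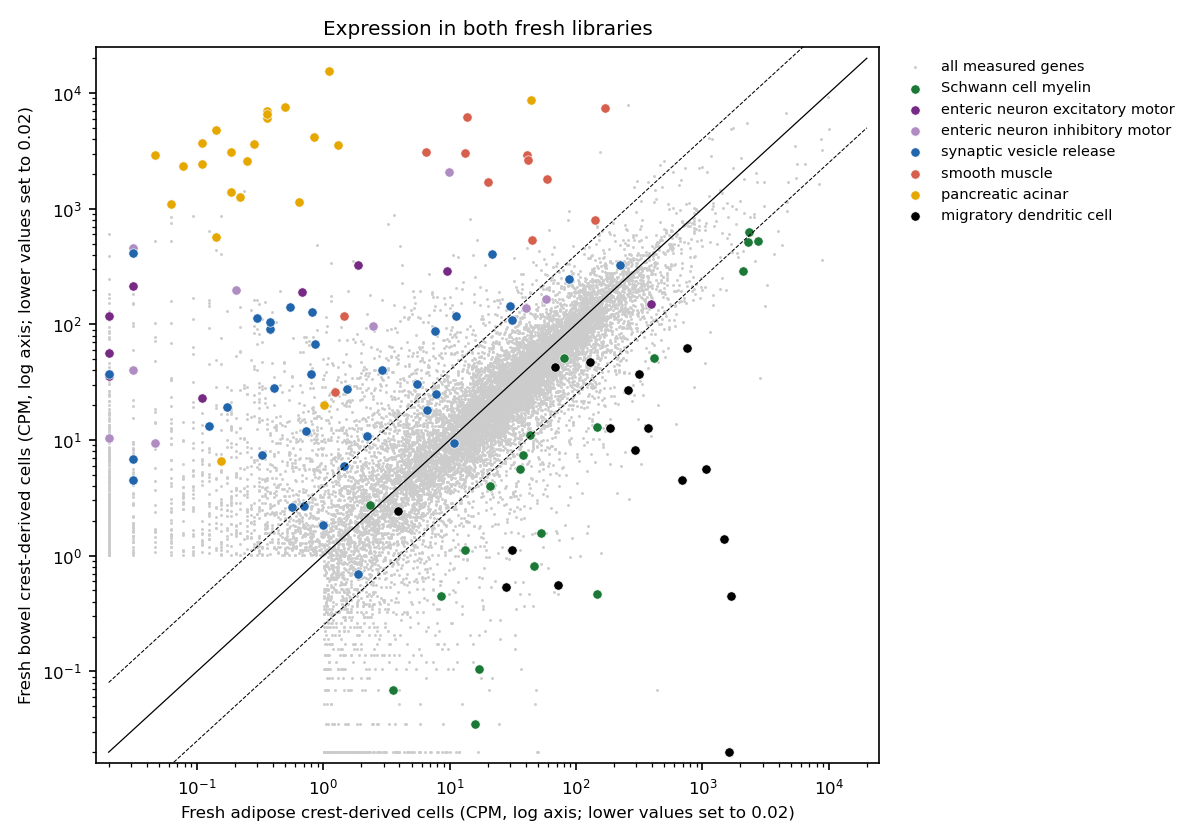
Each point is a measured gene, with its CPM in the fresh adipose library on the horizontal axis and in the fresh bowel library on the vertical axis, both logarithmic; the solid line marks equal CPM, the dashed lines a 4-fold difference, and colours mark 7 gene lists. Most genes of the pancreatic acinar, smooth muscle and neuronal lists lie above the upper dashed line, and most myelin and migratory dendritic cell genes lie below the lower one.

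Genes that mark other cell types had reads in both libraries. Genes of 20 such lists of other cell types took 3.95% of adipose and 14.4% of bowel reads. Pancreatic acinar genes summed to 52.4 CPM in adipose and 90078 CPM in bowel cells, smooth muscle genes to 552 CPM in adipose and 30161 CPM in bowel cells, and mesothelial genes (the outer lining of the gut) to 34.1 CPM in adipose and 1881 CPM in bowel cells. Migratory dendritic cell genes summed to 9054 CPM in adipose and 266 CPM in bowel cells, T cell genes to 679 CPM in adipose and 43.5 CPM in bowel cells, and B cell genes to 776 CPM in adipose and 163 CPM in bowel cells. Fibroblast genes were present in both, at 21364 CPM in adipose and 8527 CPM in bowel cells. They also summed to 9340 CPM in adipose neurospheres and 4448 CPM in tdTomato-positive bowel spheroid cells, and whether these reads came from cells outside the crest lineage was not tested. Adipocyte genes summed to 980.3 CPM in adipose and 409.8 CPM in bowel cells, mostly from Cd36 and Fabp4, which endothelial cells and macrophages also express. Of 11 measured adipocyte genes 1 was higher, Pparg, with 30.3 CPM in adipose and 6.1 CPM in bowel cells (2.29), while Adipoq, the adiponectin gene of fat cells, had 3.76 CPM in adipose and 4.33 CPM in bowel cells. With library totals that leave out these 20 lists, 982 genes were higher and 1893 lower.

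Both libraries carried the glial and crest genes that the label calls for. Sox10, the master transcription factor of peripheral glia, had 377 CPM in adipose and 98 CPM in bowel cells (log2 ratio 1.92). S100b, a calcium-binding glial protein, had 129 CPM in adipose and 95.7 CPM in bowel cells, and Ednrb, the endothelin receptor of migrating crest cells, had 152 CPM in adipose and 234 CPM in bowel cells. These 3 genes missed the 4-fold size rule. Among 18 measured crest progenitor genes, 5 were higher and 0 lower, with a median log2 ratio of 1.21. Beside Pax3 and Tfap2b, these were Erbb3, the neuregulin receptor of Schwann cell precursors (127 CPM in adipose and 24.9 CPM in bowel cells), Tfap2a (2.42 CPM in adipose and 0.347 CPM in bowel cells) and Msx1 (2.86 CPM in adipose and 0.537 CPM in bowel cells), both transcription factors of early crest.

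**Figure D2:**
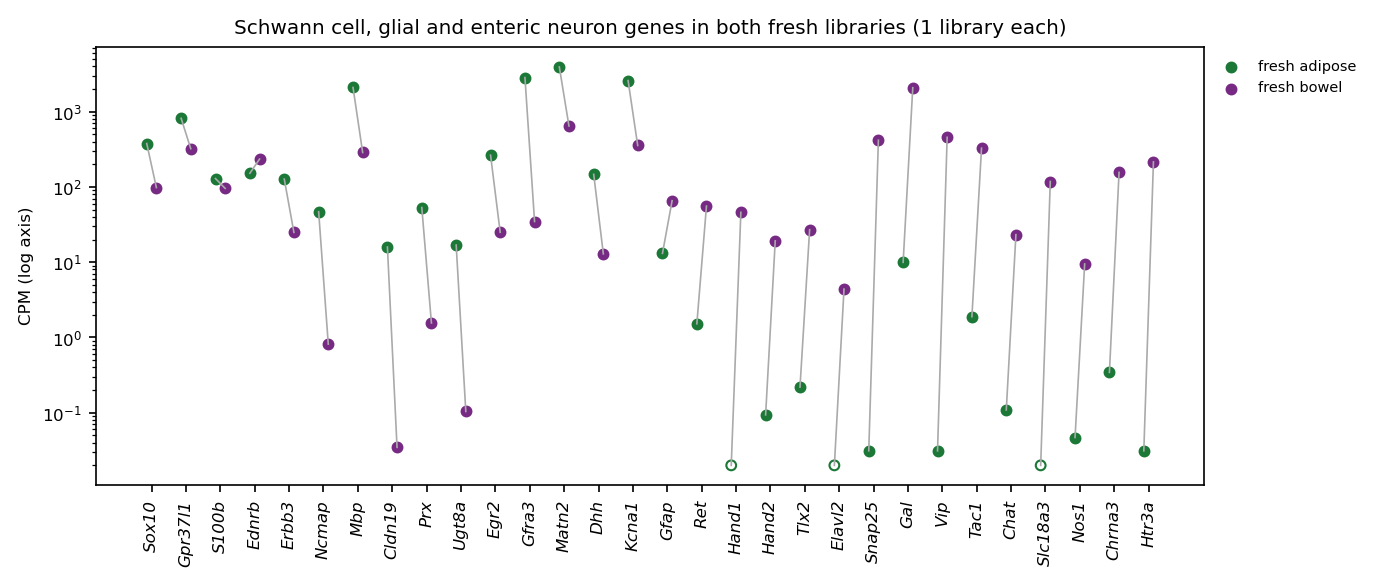
CPM on a logarithmic axis for 30 glial, Schwann cell and enteric neuron genes, with the fresh adipose library at the left and the fresh bowel library at the right of each pair; open circles at the bottom mark 0 reads. Sox10, Gpr37l1 and S100b are well above 10 CPM in both libraries, the Schwann cell genes from Ncmap to Kcna1 are higher in adipose cells, and the genes from Gfap to Htr3a are higher in bowel cells.

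Myelin genes leaned to the adipose side more than any other list of crest-lineage genes. Of 20 measured members, 16 were higher and 0 lower, against 7.09% higher among all measured genes, and the median log2 ratio was 2.92. Cldn19, which seals the myelin layers of Schwann cells, had 15.9 CPM in adipose and 0.0347 CPM in bowel cells. The bowel value is 2 reads, and the log2 ratio of 7.87 has an interval of 6.97 to 11.87. Ncmap, a membrane protein of non-compact myelin, had 46.8 CPM in adipose and 0.815 CPM in bowel cells (5.77), and Ugt8a, the enzyme that makes the myelin lipid galactosylceramide, had 16.9 CPM in adipose and 0.104 CPM in bowel cells (6.94). Fa2h, which hydroxylates myelin lipids, had 13.3 CPM in adipose and 1.11 CPM in bowel cells. Pmp22, another structural protein of compact myelin, passed narrowly with 2284 CPM in adipose and 518 CPM in bowel cells (2.12), and did not pass with the totals that leave out other cell types. Members that missed the rule included Sh3tc2 (1.95), Adgrg6 (0.64) and the gap junction gene Gjb1, which had 2.33 CPM in adipose and 2.74 CPM in bowel cells. Over the whole list the levels summed to 10527 CPM in adipose and 2102 CPM in bowel cells.

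Set against transcript length, the high levels among myelin genes of adipose cells belonged to members that the bowel library also held at high levels. Per kilobase of exon in the adipose library, Pmp22 had 970.2 CPM, Cnp, a myelin cytoplasmic enzyme, 751 CPM and Mbp 247 CPM. Mal, a proteolipid of myelin vesicles, had 149 CPM per kilobase, Ncmap 21 CPM, Prx 9.54 CPM and Cldn19 3.74 CPM. Of these 7 genes, Ncmap, Prx and Cldn19 had the greatest ratios to bowel and the lowest levels per kilobase in adipose cells. Exon lengths are unions over isoforms, which understates genes with many isoforms such as Mbp.

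Regulators of Schwann cells held no common direction, with 2 of 14 measured members higher, 1 lower and a median log2 ratio of 0.16. Among all measured genes the shares were 7.09% higher and 11.4% lower. Egr2 (Krox20), the factor that turns on myelin genes in Schwann cells, had 264 CPM in adipose and 25 CPM in bowel cells (log2 ratio 3.38). Pou3f1 (Oct6), the factor of the promyelinating stage, had 62.6 CPM in adipose and 16.7 CPM in bowel cells (1.89) and did not pass. Itgb4, a laminin receptor subunit of Schwann cells, had 94.2 CPM in adipose and 14.3 CPM in bowel cells (2.70), and it was the only other regulator of 14 measured that was higher. Nrg1, the axonal growth factor that sets myelin thickness, was lower, with 0.469 CPM in adipose and 4.59 CPM in bowel cells. Egr2 is also an immediate early gene, and other members of that list were high in adipose cells as given further on.

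Genes of non-myelinating Schwann cells leaned to the adipose side, mostly below the size rule. Of 16 measured members 4 were higher and 1 lower, with a median log2 ratio of 1.18. Among all measured genes 7.09% were higher and 11.4% lower. Only Gfap (-2.34) and Sorcs1 (-0.67) had negative ratios. Matn2, a matrix protein of nerve sheaths, had 3927 CPM in adipose and 645 CPM in bowel cells (2.59). Cdh19, a cadherin of Schwann cell precursors, had 719 CPM in adipose and 159.6 CPM in bowel cells (2.15), and Lgi4, a secreted Schwann cell protein, had 435 CPM in adipose and 106 CPM in bowel cells (2.01, under 4-fold with 3 of the 4 other scalings). Scn7a, an atypical sodium channel of glia, had 882 CPM in adipose and 225 CPM in bowel cells, and L1cam, an adhesion molecule of unmyelinated fibres, had 554 CPM in adipose and 150.3 CPM in bowel cells. Both lay just under 4-fold, at log2 ratios of 1.95 and 1.86. Dhh, the hedgehog ligand by which Schwann cells organise the nerve sheath, had 147 CPM in adipose and 12.9 CPM in bowel cells (3.49). Hhip, a hedgehog antagonist and target, was higher as well (2.75 CPM in adipose and 0.347 CPM in bowel cells), while Gli1, another target, had 0.562 CPM in adipose and 1.14 CPM in bowel cells. Of 11 measured hedgehog genes 3 were higher and 0 lower.

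Glial genes with metabolic and signalling roles held no common direction, with 2 of 15 measured members higher, 2 lower and a median of 0.41. Among all measured genes the shares were 7.09% higher and 11.4% lower. Abca8a, a lipid transporter, had 496 CPM in adipose and 90.5 CPM in bowel cells (2.43), and Entpd2, the ATP-degrading enzyme of enteric and Schwann glia, had 658 CPM in adipose and 155 CPM in bowel cells (2.07, not passed under 2 of the 4 other scalings). The lower members were Kcnj10, the potassium-buffering channel of astrocytes and enteric glia (1.05 CPM in adipose and 7.35 CPM in bowel cells), and Aldoc, a glycolytic aldolase (7.72 CPM in adipose and 86.7 CPM in bowel cells). The injury list of Schwann cells was also mixed, with Lif and Runx2 higher, Gdnf, Artn, Fgf5 and Igfbp2 lower, and a median of 0.54 over 12 measured members. Nerve sheath genes of endoneurial and perineurial cells were higher for 6 of 14, among them Cdkn2b, a cell cycle inhibitor, with 57.7 CPM in adipose and 1.56 CPM in bowel cells (5.16), and the tight junction gene Cldn1 with 72.3 CPM in adipose and 12.8 CPM in bowel cells (2.47).

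Transcription factors of autonomic and enteric neurons were lower in adipose cells for 16 of 28 measured members, against 11.4% of all measured genes, with a median log2 ratio of -2.78. Hand1, a relative of Hand2, had 0 reads in adipose cells and 46 CPM in bowel cells, at least 995-fold lower, and 15.6 CPM in tdTomato-negative spheroid cells. Tlx2, required in enteric neurons, had 0.219 CPM in adipose and 27 CPM in bowel cells (-6.77), and Myt1l, a general neuronal factor, had 0.25 CPM in adipose and 16.8 CPM in bowel cells (-5.91). Isl1, Hmx2, Hmx3 and Elavl2, an RNA-binding protein of the list, had 0 reads in adipose cells and between 1.42 and 4.39 CPM in bowel cells. The 3 members that were higher were Insm1, a factor of newborn neurons and endocrine cells (6.26 CPM in adipose and 0.433 CPM in bowel cells), Gata3 (10.1 CPM in adipose and 1.94 CPM in bowel cells) and Satb1 (49.6 CPM in adipose and 11.6 CPM in bowel cells, not passed under 2 of the 4 other scalings). Gata3 and Satb1 are also factors of T cells, whose summed marker CPM was higher in the adipose library, and their part in these values was not tested.

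Transmitter genes of enteric motor neurons had the lowest medians of the neuronal lists. Of 10 measured excitatory genes 9 were lower and 0 higher (median -9.09, or -8.84 with genes at 0 reads set to their bound), and of 9 inhibitory genes 7 were lower and 0 higher (median -7.72). Slc18a3, the vesicular acetylcholine transporter, had 0 reads in adipose cells and 118 CPM in bowel cells, at least 2558-fold lower, and Slc5a7, the choline transporter, had 0 reads in adipose and 57 CPM in bowel cells, at least 1233-fold lower. Ache, which degrades acetylcholine, had 0.672 CPM in adipose and 189 CPM in bowel cells (-8.09). Vip, the relaxing peptide of inhibitory neurons, had 0.0312 CPM in adipose cells, which is 2 reads, and 456 CPM in bowel cells (-12.81, interval -16.90 to -12.00). Nos1, the neuronal nitric oxide synthase, had 0.0469 CPM in adipose and 9.48 CPM in bowel cells (-6.91, interval -9.96 to -6.13). Gfra2, the neurturin co-receptor, was the 1 excitatory member not lower, with 393 CPM in adipose and 150.3 CPM in bowel cells (1.37).

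Among sensory and monoamine genes the same side was low. Of 12 measured sensory members 8 were lower (median -4.30), with Calb2, calretinin, at 0.0312 CPM in adipose (2 reads) and 153 CPM in bowel cells (-11.23, interval -15.32 to -10.42) and Calcb, the beta form of calcitonin gene-related peptide, at 0.125 CPM in adipose and 143 CPM in bowel cells (-9.84). Of 9 monoamine and glutamate members 8 were lower (median -4.41). Slc18a2, the vesicular monoamine transporter, had 4.36 CPM in adipose and 116 CPM in bowel cells (-4.74), and Gch1, which makes the cofactor for monoamine synthesis, had 20.1 CPM in adipose and 122 CPM in bowel cells (-2.61). Of 12 somatosensory neuron genes only 4 were measured. Avil had 0.281 CPM in adipose and 41.1 CPM in bowel cells (-7.05). Per kilobase of exon in the bowel library, Gal led the neuropeptides with 2638 CPM, followed by Penk with 176, Cartpt with 156, Vip with 134, Calcb with 113, Tac1 with 96.1, Npy with 70.6, Sst with 49.1, Grp with 40.3 and Nmu with 23.8 CPM. Galanin, a peptide of many enteric neurons, thus stood far above the other peptides of the list in bowel cells.

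Several of these genes carry a cAMP response element, the palindrome TGACGTCA bound by the activity-regulated factor CREB. The 150 bases before the start of 4 of them, from RefSeq on GRCm38.p6, are shown because these genes were lower together and their elements are found by the letters alone. The motif is in capitals and each sequence ends at the base before the annotated start.
Cartpt, chr13:99900684-99900833, minus strand: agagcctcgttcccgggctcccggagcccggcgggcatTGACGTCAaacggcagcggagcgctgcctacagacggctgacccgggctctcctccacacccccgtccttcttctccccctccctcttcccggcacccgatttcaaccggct
Sst, chr16:23890845-23890994, minus strand: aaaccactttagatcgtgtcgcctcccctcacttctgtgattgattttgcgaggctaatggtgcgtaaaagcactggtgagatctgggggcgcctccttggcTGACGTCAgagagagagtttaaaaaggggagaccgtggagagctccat
Chgb, chr2:132781492-132781641, plus strand: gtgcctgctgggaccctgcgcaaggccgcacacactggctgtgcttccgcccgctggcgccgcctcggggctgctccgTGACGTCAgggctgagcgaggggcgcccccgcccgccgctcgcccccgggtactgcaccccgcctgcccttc
Th, chr7:142899996-142900145, minus strand: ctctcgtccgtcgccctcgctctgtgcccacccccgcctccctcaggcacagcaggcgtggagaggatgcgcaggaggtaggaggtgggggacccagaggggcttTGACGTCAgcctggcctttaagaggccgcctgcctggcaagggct
The element lay 112 bases before the start of Cartpt, 48 before Sst, 72 before Chgb and 45 before Th. Cartpt, which encodes the CART peptide, had 0.203 CPM in adipose and 199.7 CPM in bowel cells. Sst, somatostatin, had 0 reads in adipose and 35.4 CPM in bowel cells, at least 765-fold lower in adipose cells. Chgb, a dense-core granule protein, had 0.219 CPM in adipose and 142 CPM in bowel cells, and Th, the first enzyme of catecholamine synthesis, had 0.125 CPM in adipose and 4.4 CPM in bowel cells. The element was found in the 250 bases before the start of 6 of 102 measured genes, and the other 2 were Sstr2 and Syn1. The 102 came from the motor, sensory, monoamine, receptor and vesicle release lists of neurons and from a list of islet and enteroendocrine genes, which holds Chgb. All 6 were lower in adipose cells, but so were most measured members of each of these lists, such as 26 of 35 for vesicle release. Over the whole promoter table it was present in 508 of 32851 promoters (1.55%). It was present in 13 of 936 promoters of higher genes (1.39%), 42 of 1704 of lower genes (2.46%) and 313 of 12602 of genes that passed in neither direction (2.48%), so lower genes carried it about as often as those that did not pass. A match is a description of the letters only.

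Receptors for transmitters and peptides followed the neuronal side. Of 36 measured transmitter receptors 24 were lower and 0 higher (median -3.66), and of 22 neuropeptide receptors 15 were lower and 1 higher (median -4.53). Htr3a, the channel subunit that answers serotonin on enteric neurons, had 0.0312 CPM in adipose cells (2 reads) and 215 CPM in bowel cells (-11.73, interval -15.81 to -10.91). Its partner Htr3b had 0 reads in adipose and 35.7 CPM in bowel cells. Chrm2, the muscarinic receptor of smooth muscle as well as neurons, had 0.0156 CPM in adipose (1 read) and 152 CPM in bowel cells (-11.63, interval -18.58 to -10.79), beside the smooth muscle sums of 552 CPM in adipose and 30161 CPM in bowel cells whose part in it was not tested. Galr2, a galanin receptor, had 0.0625 CPM in adipose and 159 CPM in bowel cells (-10.72), and Oprk1, the kappa opioid receptor, had 0 reads in adipose and 37.3 CPM in bowel cells, at least 807-fold lower. The higher peptide receptor was Vipr1, which lymphocytes also carry, with 5.22 CPM in adipose and 0.607 CPM in bowel cells (3.02). Receptors with like levels in both libraries were Npy1r (20.4 CPM in adipose and 19.1 CPM in bowel cells) and P2rx7 (70.8 CPM in adipose and 53.7 CPM in bowel cells).

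Ion channel genes were lower more often than higher in adipose cells, but their summed levels ran the other way. Potassium channel genes summed to 3344 CPM in adipose and 895 CPM in bowel cells. The sums were 936 CPM in adipose and 331 CPM in bowel cells for sodium channels. For calcium channels they were 790.3 CPM in adipose and 232 CPM in bowel cells. Of 30 measured potassium channel genes 20 were lower and 2 higher (median -2.67), and the higher pair were the Shaker subunits of the Schwann cell membrane and of axons, Kcna1 with 2587 CPM in adipose and 355 CPM in bowel cells (2.85) and Kcna6 with 241 CPM in adipose and 38.6 CPM in bowel cells (2.62). Kcna2, a further Shaker subunit, lay just below the rule with 426 CPM in adipose and 111 CPM in bowel cells (1.92). Lower channels included Kcnma1, the large calcium-activated channel of smooth muscle and neurons, with 0.703 CPM in adipose and 78.2 CPM in bowel cells (-6.75). Of 13 sodium channel genes 6 were lower and 1 higher, and of 15 calcium channel genes 8 were lower and 1 higher. The higher calcium channel gene was Cacnb3, with 757 CPM in adipose and 62.2 CPM in bowel cells (3.59), which is also a member of the migratory dendritic cell list. Scn9a and Scn11a, peripheral sodium channels of neurons, had 7.31 and 0.64 CPM in adipose cells, against 31.2 and 6.9 CPM in bowel cells.

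The release machinery was lower in adipose cells for 26 of 35 measured members and higher for 0, with a median of -3.98 and summed levels of 460.4 CPM in adipose and 2839 CPM in bowel cells. Snap25, the membrane SNARE of neuronal exocytosis, had 0.0312 CPM in adipose cells (2 reads) and 417 CPM in bowel cells (-12.68, interval -16.77 to -11.87). Cplx1, a clamp on vesicle fusion, had 0 reads in adipose and 37.5 CPM in bowel cells, and Syn2, a vesicle tether, had 0.547 CPM in adipose and 141 CPM in bowel cells (-7.95). Among members that missed the rule were the broadly expressed Vamp2 (88 CPM in adipose and 246 CPM in bowel cells) and Syt11 (222 CPM in adipose and 324 CPM in bowel cells). Of 31 axonal cytoskeleton genes 21 were lower and 0 higher (median -2.87). Prph, the peripheral neuron intermediate filament, had 4.22 CPM in adipose and 328 CPM in bowel cells (-6.29), and Stmn3, a tubulin-binding neuronal protein, had 0.0937 CPM in adipose and 64.2 CPM in bowel cells (-9.00). Tubb3 and Gap43, which glial precursors can also express, were less depleted, with 44.5 and 33.6 CPM in adipose cells, against 223 and 212 CPM in bowel cells. Ank3, the node and axon initial segment ankyrin, had the highest ratio of the list at 1.52, with 224 CPM in adipose and 77.3 CPM in bowel cells. Neuronal genes that no list holds were among the 12 of lowest ratio once genes of the cell type marker lists and those under 20 CPM in bowel cells were left out. Scg2, a granule protein, had 0.0625 CPM in adipose and 847 CPM in bowel cells (-13.13), Syndig1, a synaptic protein, had 0 reads in adipose and 184 CPM in bowel cells, at least 3986-fold lower, and Bex2 had 0 reads in adipose and 168 CPM in bowel cells, at least 3640-fold lower.

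**Figure D3:**
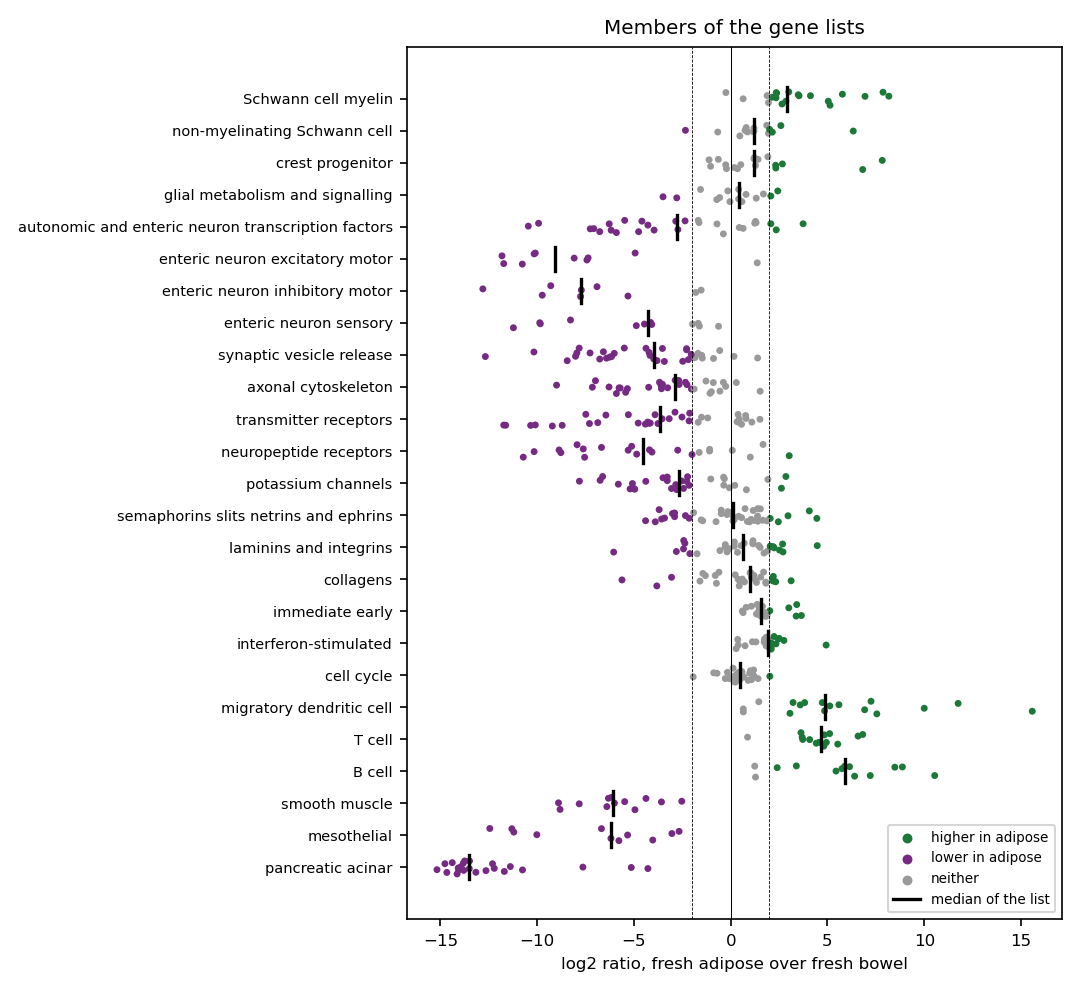
Each point is a measured member of 1 of 25 gene lists, placed by its log2 ratio of fresh adipose over fresh bowel; colours mark members that were higher, lower or neither, the black bar is the list's median and the dashed lines mark 4-fold. The median is 2.92 for myelin genes, -9.09 for excitatory motor neuron genes, -3.98 for synaptic vesicle release and -13.51 for pancreatic acinar genes.

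Growth factor signalling differed by family. Of 9 measured genes of the GDNF family, the survival signals of enteric neurons, 5 were lower and 1 higher (median -3.12). Nrtn, the ligand neurturin, had 0.484 CPM in adipose and 39.2 CPM in bowel cells (-6.27), and Artn, the ligand artemin, had 0.344 CPM in adipose and 3.4 CPM in bowel cells (-3.21). Gfra4, a co-receptor, had 1.3 CPM in adipose and 34.9 CPM in bowel cells (-4.74), while Gfra1, the GDNF co-receptor, had 57.9 CPM in adipose and 165 CPM in bowel cells (-1.53) and did not pass. Gfra3, the artemin co-receptor of Schwann cell precursors, was the higher member at a log2 ratio of 6.33. Ligand and co-receptor of artemin therefore lay on opposite sides. Edn3, the endothelin ligand of enteric crest cells, was lower, with 0.828 CPM in adipose and 17 CPM in bowel cells (-4.32), and its receptor Ednrb did not pass. Ntrk2, the BDNF receptor, was higher, with 73.7 CPM in adipose and 3.99 CPM in bowel cells (4.18), while the ligand genes Bdnf and Ntf3 differed by less than 2-fold. Hbegf, an EGF family ligand, was higher, with 264 CPM in adipose and 38.3 CPM in bowel cells (2.77).

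Wnt, BMP and FGF lists each held both higher and lower genes, beside 7.09% higher and 11.4% lower among all measured genes. Of 27 measured Wnt genes 5 were higher and 9 lower (median -1.12). Wnt6 had 105 CPM in adipose and 6.62 CPM in bowel cells (3.96), and Wnt10a, its neighbour on chromosome 1, had 4.86 CPM in adipose cells and no bowel reads, at least 92.2-fold higher in adipose cells. Wnt5a had 4.67 CPM in adipose and 111 CPM in bowel cells (-4.59), and Rspo1, a secreted amplifier of Wnt signalling, had 0.266 CPM in adipose and 134 CPM in bowel cells (-8.83). Of 22 BMP and TGF-beta genes 6 were lower and 1 higher, and the 6 included the BMP antagonists Grem1 (0.328 CPM in adipose and 70.8 CPM in bowel cells), Nog (0.156 CPM in adipose and 5.48 CPM in bowel cells) and Chrd (1.78 CPM in adipose and 9.26 CPM in bowel cells). Of 21 FGF and PDGF genes 3 were higher and 6 lower. Fgf10, a ligand of mesenchyme, had 10.7 CPM in adipose and 0.104 CPM in bowel cells (6.28), and its receptor gene Fgfr2 had 6.12 CPM in adipose and 105 CPM in bowel cells (-4.11). Rspo1, Wnt5a and Grem1 also had 61, 660.2 and 802 CPM in the tdTomato-negative cells of bowel spheroids, and the smooth muscle and mesothelial sums were higher in fresh bowel cells; their part in these differences was not tested. Of 13 retinoic acid genes, Aldh1a2, a synthesis enzyme that mesothelium expresses, was lower (4.37 CPM in adipose and 141 CPM in bowel cells, -5.02), and the receptor gene Rxrg was higher (282 CPM in adipose and 30 CPM in bowel cells, 3.21).

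Guidance and adhesion genes held members of both kinds. Of 41 measured semaphorin, slit, netrin and ephrin genes 5 were higher and 10 lower, with a median of 0.13. Plxnc1, a semaphorin receptor, had 122 CPM in adipose and 5.44 CPM in bowel cells (4.45), and Sema4f, a membrane semaphorin of Schwann cells, had 130.1 CPM in adipose and 7.64 CPM in bowel cells (4.06). The lower members included the repellent Slit2 (1.17 CPM in adipose and 25 CPM in bowel cells) and its receptors Robo1 (0.312 CPM in adipose and 2.51 CPM in bowel cells) and Robo2 (1.31 CPM in adipose and 10.6 CPM in bowel cells). Of 26 neural adhesion genes 2 were higher and 9 lower, and the higher pair both belong to the Cadm family of axon and glia contacts. Cadm2 had 227 CPM in adipose and 6.02 CPM in bowel cells (5.21), and Cadm4, the Schwann cell member, had 38.1 CPM in adipose and 7.42 CPM in bowel cells (2.34). The neuronal contactins Cntn1, Cntn2 and Cntn3 were lower, at 1.59, 0.125 and 0.219 CPM in adipose cells, against 44.9, 1.66 and 4.72 CPM in bowel cells.

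Positional transcription factors separated the tissues in both directions. Of 20 measured limb, trunk, skin and gut factors 9 were higher and 5 lower, with a median of 0.92. Tbx5, the forelimb factor that the heart also uses, had 9.47 CPM in adipose cells and no bowel reads, at least 179.6-fold higher. Tbx15, a factor of skin and of subcutaneous fat, had 6.78 CPM in adipose and 0.243 CPM in bowel cells (4.61), Tbx4, the hindlimb factor, had 4.76 CPM in adipose and 0.485 CPM in bowel cells (3.19), and Tbx18 had 5.47 CPM in adipose and 0.589 CPM in bowel cells (3.13). The lower factors included those of gut mesenchyme. Nkx2-3 had 0.234 CPM in adipose and 28.2 CPM in bowel cells (-6.74), Foxf1 had 1.73 CPM in adipose and 75.2 CPM in bowel cells (-5.43), Foxf2 had 0.312 CPM in adipose and 14.6 CPM in bowel cells (-5.43) and Irx5 had 0.172 CPM in adipose and 2.72 CPM in bowel cells (-3.77). Nkx2-3 and Foxf1 had 35.3 and 41.2 CPM in tdTomato-negative spheroid cells. Tbx5 was near 0 in all 5 cultured libraries, at 0.186 CPM or less.

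Hox genes, which record position along the body axis, split by paralog group. Groups 2 to 8 held every lower Hox gene, and the 2 higher ones were both of group 10. Of 8 measured HoxA genes 6 were lower and 1 higher (median -4.31), of 6 HoxB genes 4 were lower (median -2.53), of 5 HoxC genes 4 were lower and 1 higher (median -3.52) and of 2 HoxD genes 1 was lower. Hoxa2 had 0.234 CPM in adipose and 10.2 CPM in bowel cells (-5.27), Hoxc8 had 1.12 CPM in adipose and 25.5 CPM in bowel cells (-4.48), and Hoxb6 had 0.312 CPM in adipose and 15.4 CPM in bowel cells (-5.50). Hoxa10 had 2.45 CPM in adipose cells and no bowel reads, at least 46.5-fold higher, and Hoxc10 had 1.47 CPM in adipose cells and no bowel reads, at least 27.9-fold higher. Hoxd8 had 8.18 CPM in adipose and 2.32 CPM in bowel cells (1.78) and did not pass. Neighbouring and overlapping Hox transcripts cannot be told apart where strand was not counted.

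**Figure D4:**
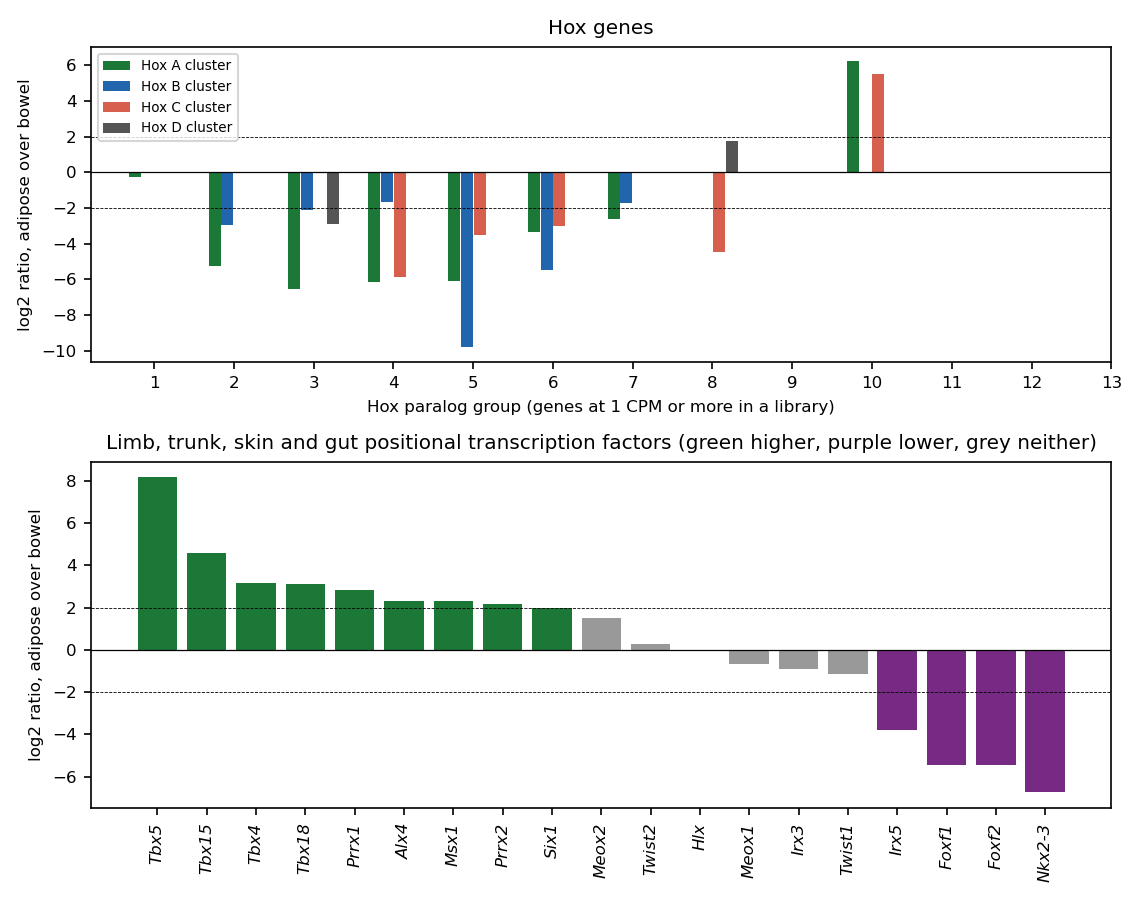
Upper panel: log2 ratio of fresh adipose over fresh bowel for the measured Hox genes, by paralog group on the horizontal axis and coloured by cluster; lower panel: the same ratio for 19 of the 20 measured positional transcription factors, ordered by ratio. Bars below 0 cover most Hox genes of groups 2 to 8, and the bars of Hoxa10 and Hoxc10 reach 6.23 and 5.50.

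Matrix genes held members of every kind. Nid2, a nidogen that links laminin to collagen IV, had 1042 CPM in adipose and 46.5 CPM in bowel cells (log2 ratio 4.47), while its relative Nid1 had 873 CPM in adipose and 388 CPM in bowel cells (1.15). Of 32 measured laminin and integrin genes 8 were higher and 6 lower (median 0.62), against 7.09% higher and 11.4% lower among all measured genes. The collagen IV genes Col4a1 (1.29) and Col4a2 (1.00) and the laminin genes Lamc1 (1.14) and Lamb1 (1.91) did not pass. Lama2, the laminin chain whose loss causes a neuropathy with muscular dystrophy, had 73.9 CPM in adipose and 15.4 CPM in bowel cells (2.24), Itga6, the Schwann cell laminin receptor partner of Itgb4, had 228 CPM in adipose and 48.9 CPM in bowel cells (2.20), and Hspg2, perlecan, had 124 CPM in adipose and 21.2 CPM in bowel cells (2.52). Of 31 collagen genes 5 were higher and 3 lower (median 1.00), and the lower share was near that of all measured genes. Col5a3 had 369 CPM in adipose and 41.7 CPM in bowel cells (3.12), and the fibrillar collagens Col1a1 (471 CPM in adipose and 101 CPM in bowel cells), Col1a2 (1894 CPM in adipose and 415 CPM in bowel cells) and Col3a1 (8326 CPM in adipose and 1644 CPM in bowel cells) were each higher. Col1a1, Col1a2 and Col3a1 are members of the fibroblast list, so the higher fibroblast sum in adipose cells includes their reads. Other fibroblast genes ran the other way without passing, such as Dcn, decorin, with 993 CPM in adipose and 2308 CPM in bowel cells (-1.24) and Pdgfra with 23.5 CPM in adipose and 69.3 CPM in bowel cells (-1.58). Col12a1 and Col8a2 were lower, at 10 and 1 CPM in adipose cells, against 139.5 and 49.9 CPM in bowel cells.

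Cytokine and interferon genes leaned to adipose cells. Of 42 measured cytokine and chemokine genes 19 were higher and 1 lower (median 1.59). Ccl5 had 694 CPM in adipose and 4.47 CPM in bowel cells (7.25), Ccl22, a chemokine of mature dendritic cells, had 1070 CPM in adipose and 5.62 CPM in bowel cells (7.55), and Cxcl13, the chemokine that draws B cells, had 72 CPM in adipose and 0.468 CPM in bowel cells (7.15). Il34, a growth factor of tissue macrophages, had 119 CPM in adipose and 11.9 CPM in bowel cells (3.30), and Il6 had 42.5 CPM in adipose and 4.2 CPM in bowel cells (3.31). Of 22 interferon-stimulated genes 9 were higher and 0 lower (median 1.90), among them Gbp2 (1381 CPM in adipose and 203 CPM in bowel cells). Of 20 antigen presentation genes 4 were higher and 0 lower (median 0.73). They were Tap1, a peptide transporter subunit (592 CPM in adipose and 110.1 CPM in bowel cells), Nlrc5, the class I transactivator (68.2 CPM in adipose and 11.5 CPM in bowel cells), Psmb9 (2.03, not passed under 3 of the 4 other scalings) and H2-M2. H2-M2, which the migratory dendritic cell list also holds, had 1623 CPM in adipose cells and no bowel reads, at least 30802-fold higher. Of the class I genes, B2m, the shared light chain, did not pass (6514 CPM in adipose and 2451 CPM in bowel cells, 1.39), and class II genes had negative ratios without passing (H2-Ab1 1200 CPM in adipose and 3989 CPM in bowel cells, -1.75; Cd74 2240 CPM in adipose and 5501 CPM in bowel cells, -1.32). Of 12 macrophage markers 1 was lower (Cx3cr1, 10.7 CPM in adipose and 127 CPM in bowel cells), with sums of 1986 CPM in adipose and 5230 CPM in bowel cells. Lymphocyte and migratory dendritic sums were higher in adipose cells and the part of these cells in the immune values was not tested.

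Higher genes outside these lists were mixed in kind. Fgl2, a fibrinogen-like immune regulator, had 8837 CPM in adipose and 358 CPM in bowel cells (4.61) and was among the 8 genes with most adipose reads. The 12 higher genes of greatest ratio were taken from those at 20 CPM or more in adipose cells and outside the cell type marker lists. Of these, Rflna, a filamin-interacting protein, had 158 CPM in adipose and 1.06 CPM in bowel cells (7.16), Lad1, an anchoring filament protein, had 263 CPM in adipose and 3.1 CPM in bowel cells (6.37), Slco5a1, an organic anion transporter family member, had 108 CPM in adipose and 0.988 CPM in bowel cells (6.70), and Ptx3, a pattern recognition protein, had 90.2 CPM in adipose and 0.971 CPM in bowel cells (6.47). Akr1c18, a steroid dehydrogenase, had 36.4 CPM in adipose and 0.104 CPM in bowel cells (8.04), and Lpar3, a lysophosphatidic acid receptor, had 20.4 CPM in adipose and 0.0693 CPM in bowel cells (7.63). The 12 genes of highest ratio by this rule also held the lymphocyte genes Iglc2, Iglc3, Ly6d and Ctla4, and the immunoglobulin constant genes Iglc2 and Iglc3 are near-identical copies whose split is uncertain. On the lower side, Tm4sf4, a membrane protein of secretory epithelia, had 0 reads in adipose and 391 CPM in bowel cells, at least 8458-fold lower. Of the other 11 lowest genes by the same rule, which leaves out the marker list of acinar genes, 7 were pancreatic enzyme, granule or regenerating protein genes. Marker list genes that lay lower still included the acinar genes Pnliprp1 (-15.18) and Clps (-14.77).

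Early response genes leaned to adipose cells, while proliferation genes differed little. For the counts that follow, the shares among all measured genes were 7.09% higher and 11.4% lower. Of 22 measured immediate early genes 5 were higher and 0 lower (median 1.54), and their sum was 34839 CPM in adipose and 12504 CPM in bowel cells. Fos had 8868 CPM in adipose and 3221 CPM in bowel cells (1.44), below the rule, and Nr4a2, an orphan nuclear receptor of the list, passed with 135 CPM in adipose and 16.7 CPM in bowel cells. These genes are known to respond to tissue digestion, which both groups went through, and its part in the values of Egr2 was not tested. Of 16 heat shock genes 2 were higher, which were the near-identical pair Hspa1a and Hspa1b, and 1 was lower, Hspb8, a small chaperone of muscle and nerve, with 11.3 CPM in adipose and 205 CPM in bowel cells (-4.20). Of 29 cell cycle genes 1 was higher and 0 lower (median 0.46), and it was Cdkn1a, the p21 inhibitor of division, with 604 CPM in adipose and 147 CPM in bowel cells (2.02, under 4-fold with 3 of the 4 other scalings). Mki67, the proliferation antigen, had 24.4 CPM in adipose and 18.3 CPM in bowel cells, and Cdk1 had 22.6 CPM in adipose and 19.5 CPM in bowel cells. Of 31 cholesterol and fatty acid synthesis genes, which myelinating cells use, 1 was higher (Fa2h) and 0 lower (median 0.49). Among the 24 genes of glycolysis and the hypoxia response, 4 were lower and 1 was higher (median -1.04), among them Aldoa with 459 CPM in adipose and 2403 CPM in bowel cells (-2.41).

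Levels of sex-linked genes differed although both pools held 2 female and 1 male mice. Xist, transcribed from the inactive X of female cells, had 31 CPM in adipose and 90 CPM in bowel cells (-1.56), and the Y-linked Ddx3y had 84.9 CPM in adipose and 24.8 CPM in bowel cells (1.75), Kdm5d 9.47 CPM in adipose and 3.54 CPM in bowel cells (1.39), Eif2s3y 48.4 CPM in adipose and 15.9 CPM in bowel cells (1.59) and Uty 23.1 CPM in adipose and 5.15 CPM in bowel cells (2.14). Xist was thus the lower and the 4 Y-linked genes the higher in adipose cells, with Uty alone past the rule and not past it under 1 of the 4 other scalings. The shares of the 2 sexes in the RNA of each pool were not tested, and their part in any difference given here cannot be told apart from that of the tissue.

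Part of the genes called in fresh cells were also found after culture. Of the higher genes, 573 (51.9%) reached 1 CPM in at least 1 of the 4 cultured tdTomato-positive libraries, as did 1233 (69.5%) of the lower genes and 88.6% of all measured genes. The acinar sum was 247 CPM or less in the other 6 libraries, against 90078 CPM in fresh bowel cells. Ncmap, at 46.8 CPM in fresh adipose cells, had 1.18 CPM in adipose neurospheres, and Tlx2 had 0 reads there, against 15.3 CPM in bowel neurospheres of the same 2-stage method. Between those neurospheres, 5.33% of measured genes were higher and 8.71% lower in the adipose library, and of 183 named genes called in both comparisons 139 had the same direction and 44 the opposite one (24%), against 199 of 679 among all genes called in both (29.3%).

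**Figure D5:**
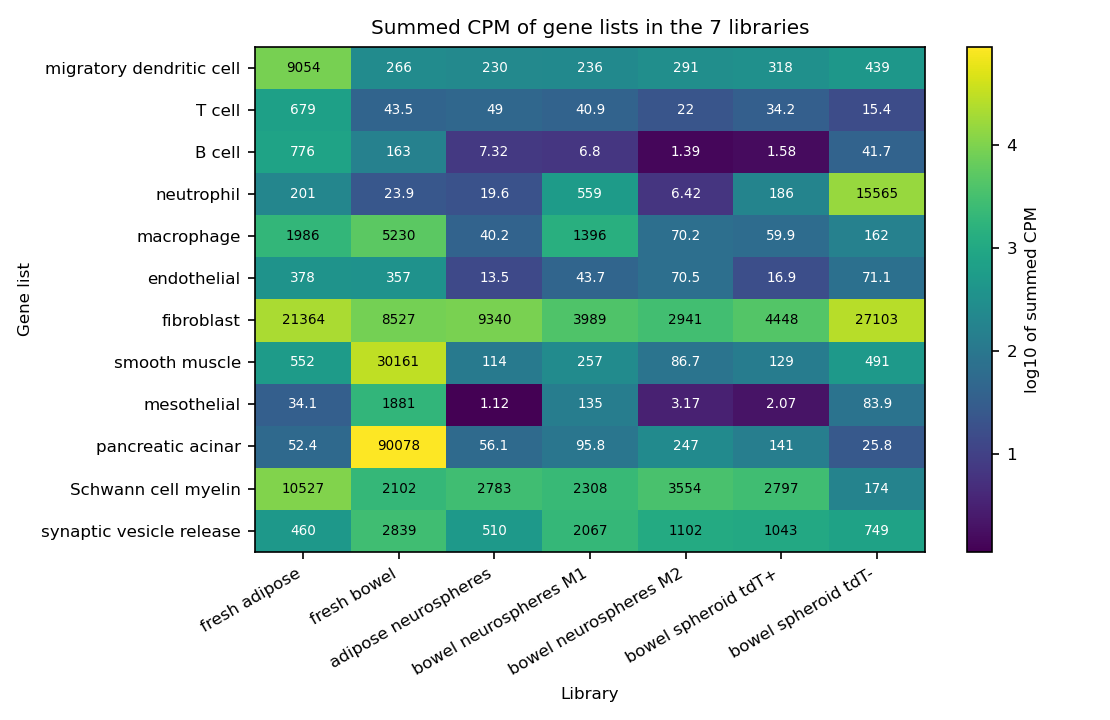
Summed CPM of 12 gene lists (vertical axis) in the 7 libraries (horizontal axis, fresh libraries at the left), with the value printed in each cell and colour giving its log10. Migratory dendritic cell genes reach 9054 CPM in fresh adipose cells, acinar genes 90078 CPM in fresh bowel cells, and myelin genes 10527 CPM in fresh adipose cells.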

How the data were processed

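Per the labels' protocols, SMART-Seq v4 amplification of full-length cDNA from sorted cells was followed by Nextera XT library preparation. The values are CPM per Entrez gene, deposited by the authors. Per the submitters' processing notes, reads were handled with bcl2fastq 2.17, HISAT and featureCounts on mm10. The sources used here give no annotation, strand setting or other version. Every CPM was a whole multiple of the CPM of 1 read (100% within 0.05 read), so whole reads were recovered, and 3 reads correspond to 0.0469 CPM in the adipose and 0.052 CPM in the bowel library. Of 27179 identifiers 25275 matched a RefSeq table of GRCm38, which gave symbols and coordinates. Near-identical gene copies and overlapping genes can share or lose reads.

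TMM factors came from edgeR 4.0.16 (R 4.3.3), computed across the 7 libraries with the 16461 genes at 1 CPM or more in a library. A prior count of 2 was added for log2 ratios and shrinks those of genes with few reads; printed CPM are unscaled. With 1 library per group no count test could be run and no p-value is given. The counting interval is the exact conditional binomial interval of the ratio. Ratios against 0 reads are bounds from 3 reads in that library.

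Members and gene lists were chosen with earlier results of these data known. The 69 lists hold 1166 members, of which 1164 were found and 1042 measured. Named genes are list members, the 8 genes with most reads in each library, the 10 list members of highest level with a log2 ratio within 0.5 of 0, and the 12 called genes of highest and the 12 of lowest log2 ratio among genes with 20 CPM or more in the higher library; these 24 leave out cell type marker lists, sex-linked genes, unnamed gene models and pseudogenes. Which of these the text gives with values was decided after the values were seen, and some list members are not reported here. Simulated read counts were used to test the ratio, the counting interval and the size rule, and no other step. The alternatives were total counts, DESeq2 1.42.0 size factors and TMM over the 2 fresh libraries as scalings, filters (none, 5 CPM, or 1 CPM in cultured cells), 0.5 as prior count, and size rules at 2-fold and at 8-fold. Totals without other cell type lists were added after seeing the data. Python 3.11.15 with scipy 1.17.1, pandas 2.3.3, numpy 2.4.6 and matplotlib 3.10.9 made the tables and plots.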

Additional observations from a re-analysis of the deposited data

Results flagged for a closer look

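The tissue difference of fresh cells was set beside that of neurospheres grown in 2 culture stages, adipose over bowel M2. The 2 comparisons share no library. In the neurospheres 716 of 13440 measured genes were higher (5.33%) and 1171 lower (8.71%). Of the list members and other named genes, 183 passed the size rule in both comparisons, 139 in the same direction and 44 (24%) in opposite ones, against 199 of 679 (29.3%) opposite among all genes called in both. Of the 44, 20 had at least 10 CPM in the higher library of both comparisons. With 1 library in each state, the difference between fresh and cultured cells was not tested.

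Of these 20, 13 were higher in fresh adipose cells and lower in adipose neurospheres. Among glial genes, the log2 ratio was 2.85 in fresh cells and -3.77 in neurospheres for Mbp, 2.12 and -5.98 for Pmp22, 2.59 and -2.64 for Matn2, 2.62 and -2.20 for Kcna6 and 2.07 and -2.76 for Entpd2. The retinoid receptor gene Rxrg had 3.21 in fresh cells and -3.02 in neurospheres. Fgl2 had 8837 CPM in fresh adipose and 358 CPM in fresh bowel cells (4.61), and 12.5 CPM in adipose and 264 CPM in bowel neurospheres (-4.28). Among immune and survival genes, the ratio in fresh cells and in neurospheres was 3.64 and -3.89 for Cxcl1, 3.17 and -3.25 for Cxcl10, 2.50 and -2.45 for Ifit3 and 3.06 and -2.22 for Birc3. Among matrix genes, the fresh and neurosphere ratios were 3.12 and -2.50 for Col5a3 and 2.07 and -4.41 for Itga4. The fresh call was lost under 2 of the 4 other scalings for Itga4 and Entpd2 and under 1 for Pmp22. Neurosphere ratios were computed with the main scaling only.

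The other 7 were lower in fresh adipose cells and higher in adipose neurospheres. Rspo1 had 0.266 CPM in fresh adipose and 134 CPM in fresh bowel cells (-8.83), and 16.1 CPM in adipose and 0.0766 CPM in bowel neurospheres (7.32). Grem1 had a log2 ratio of -7.63 in fresh cells and 5.39 in neurospheres, Ano1, the chloride channel of pacemaker cells, -2.64 and 7.50, and Tagln, a smooth muscle protein, -4.95 and 2.76. Uchl1, an abundant neuronal enzyme, had -4.24 in fresh cells and 2.38 in neurospheres. The guidance receptor gene Epha4 had -2.34 in fresh cells and 2.66 in neurospheres, and the fibronectin receptor subunit gene Itga5 had -2.37 and 2.48.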

How the results depend on the processing

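Of 10 alternatives, 9 were planned and 1 was added after seeing the data. Under the 4 other scalings, the totals without other cell type lists included, between 982 and 1128 genes were higher and between 1759 and 1893 lower. The median log2 ratio of all measured genes moved by 0.019 with total counts, -0.028 with DESeq2 size factors, -0.084 with TMM over the 2 fresh libraries and -0.15 with the added totals. The number of higher genes was 2045 with no filter, 714 with a filter at 5 CPM, 2669 under the 2-fold rule, 588 under the 8-fold rule and 573 when 1 CPM was also asked for in tdTomato-positive cultured cells, against 1105; the number of lower genes was 2923 under the 2-fold rule, against 1774. Of the 1070 named genes, 34 lost or gained the call under a scaling alternative. No called gene changed direction, but this could hardly have come out otherwise. Called genes differ at least 4-fold, the scalings shifted ratios far less, and filters and size rules leave ratios unchanged. The median log2 ratio reversed for 3 lists with few measured members: somatosensory neuron (0.94 with no filter, against -1.23), skeletal muscle (0.87 with no filter, against -4.11) and intestinal epithelium (1.35 with the filter at 5 CPM, against -3.71). The changed set of measured members is part of those alternatives. No paired analysis was possible because each group has 1 library. For the same reason no library could be left out. Genes with few reads in 1 library have ratios limited by depth, as their intervals show.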
